A study of Mus musculus with 4 samples.

Results

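The genes described here are the transcription factor gene Nfe2l2, its repressor gene Keap1 and 8 genes of glutathione synthesis and of thiol and quinone reduction, namely Gclc, Gclm, Gss, Gsr, Txnrd1, Srxn1, Osgin1 and Nqo1. They were taken by symbol from a table of 21959 gene IDs; each symbol matched 1 ID, and all 10 had enough counts to be tested. The livers are from WT mice modelling ACLF (acute-on-chronic liver failure), where a sudden insult strikes an already damaged liver. Of 4 livers sequenced, 2 are labelled with baicalein treatment and 2 with saline treatment. Baicalein is a flavone from the root of Scutellaria baicalensis. The labels used here give no dose, sampling time, age or sex, do not say how ACLF was produced, and do not tie the livers to separate animals. The p-values therefore reflect spread among these libraries alone, part of which may be technical.

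NRF2, the protein of Nfe2l2, is a transcription factor that KEAP1 marks for degradation in unstressed cells. Oxidants and electrophiles modify KEAP1, and NRF2 then accumulates, pairs with small MAF proteins and binds antioxidant response elements near genes that make glutathione and reduce thiols and quinones. Liver makes much of the body's glutathione, and hepatocytes use it to conjugate drugs and to detoxify peroxides. Much of NRF2 control acts on the protein, which RNA counts do not measure.

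The libraries held 14766061 and 18731616 counts for baicalein and 17673137 and 13976440 for saline. Y-linked transcripts (Ddx3y, Kdm5d, Eif2s3y and Uty) summed to 2 and 1 counts in the baicalein livers and to 820 and 836 in the saline livers, and for every result here treatment cannot be told apart from whatever underlies this difference. Transcripts of 10 skeletal muscle genes summed to 0.894 and 1880 CPM (counts scaled to a common, normalised library size) in baicalein 1 and 2, and to 6270 and 1.46 CPM in saline 1 and 2. Baicalein 2 and saline 1 thus carried muscle RNA and the other livers nearly none. In baicalein 1, 7 of the 10 muscle genes had no count, and in saline 2, 6. Of 8 hepatocyte markers, 2 rose and 3 fell with baicalein, calls that were all lost without saline 1 or without saline 2. The 8 summed to 116000 and 98900 CPM in baicalein livers, against 85200 and 80700 CPM in saline livers. Alb carried that difference: without it the other 7 summed to 28000 and 24700 CPM with baicalein and to 29300 and 27600 CPM with saline, and the groups overlapped.

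With baicalein, 7 of the 10 genes fell, 1 rose and 2 did not pass the test (edgeR, adjusted p below 0.05 over all 12657 tested genes). Osgin1 fell by 73.8% and Gclc by 61.4%, while Nfe2l2, Gsr, Txnrd1 and Srxn1 each fell by between 35.9% and 38.3%. Nqo1, often used as a readout of NRF2 activity, moved the other way and was 2.30-fold higher with baicalein. Among all tested genes 15.5% were called, 7.90% as lower and 7.65% as higher. The median log2 fold change of the 10 genes was -0.64, and that of all tested genes was 0.01. In 9 of the 10 genes the groups did not overlap in CPM, 8 lower and 1 higher with baicalein, as was so for 59.2% of all tested genes (29.5% lower and 29.7% higher). In bulk tissue, fewer cells of a type and less RNA per cell cannot be told apart.

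**Figure D1:**
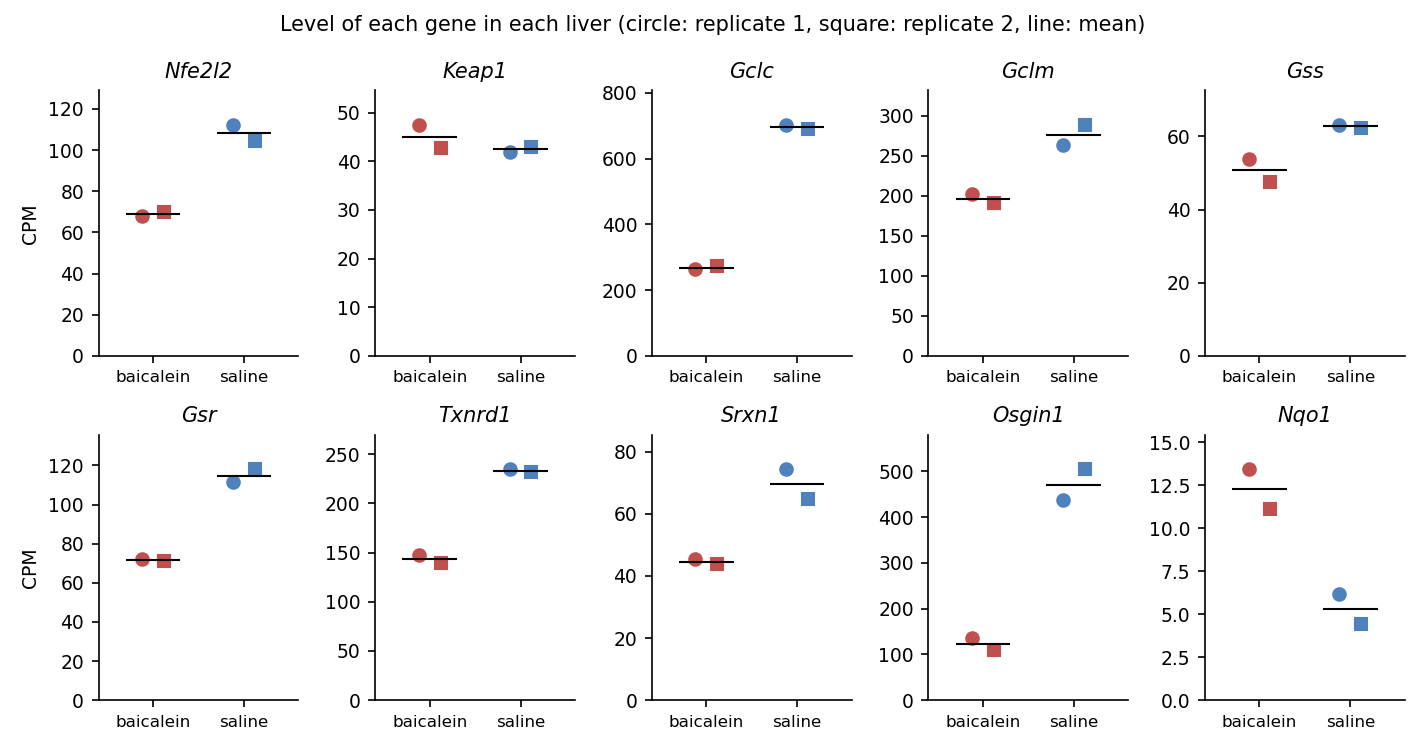
Level of each of the 10 genes in CPM (vertical axes, from 0, a separate scale per gene) in the baicalein and saline livers; circles are replicate 1, squares replicate 2 and lines group means. Gclc was at 263 and 274 CPM with baicalein and at 702 and 691 CPM with saline, and Keap1 is the gene whose groups overlap.

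Nfe2l2 (ENSMUSG00000015839) lies on chromosome 2, 75505857 to 75534985 on the minus strand in the positions of the deposited table. It was at 67.9 and 69.8 CPM in the baicalein livers, against 112 and 104 CPM in the saline livers. Both baicalein livers were below both saline livers, and the livers of a group lay close together. The log2 fold change was -0.65 (SE 0.10, adjusted p = 0.00243), a fall of 36.4%.

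Keap1 (ENSMUSG00000003308, chromosome 9, 21141026 to 21150657, minus strand) encodes the adaptor that brings NRF2 to the CUL3 ubiquitin ligase. It was at 47.5 and 42.7 CPM with baicalein and at 42.0 and 43.0 CPM with saline. Baicalein 2 lay between the saline livers, so the groups overlapped in CPM. The log2 fold change of 0.08 (SE 0.10, adjusted p = 0.613) did not pass, and its 95% interval ran from -0.13 to 0.30. Per kilobase, Nfe2l2 stood above Keap1 in every liver. The ratio of their FPKM (counts scaled by gene length and library total, as deposited) was 1.77 and 2.02 in baicalein livers, against 3.30 and 3.00 in saline livers. By FPKM, Keap1 was at 9.96 and 9.73 with baicalein and at 8.61 and 8.98 with saline, so on that scale its groups did not overlap. In the annotation 510 exonic bases of Keap1 lie opposite the antisense gene Gm16754. The counting is not stated to use strand, so reads of such partners cannot be told apart here or below.

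The sequences just before the start sites are shown for genes that moved in each direction, since antioxidant response elements are the letters by which NRF2 target promoters are usually described. Windows of 300 bases (250 before and 50 after the annotated start) came from RefSeq on build GRCm38.p6, which holds 10 windows for 8 of the 10 genes. Gclc and Gsr have no entry. A pair of spellings was searched on both strands, TGACNNNGC, the core of the element, and TGACTCAGC or TGAGTCAGC, the form that NRF2 and small MAF proteins bind. Letters TGACTCA and TGAGTCA within the latter are also the AP-1 site, so these matches overlap AP-1 matches. The second spelling was added after matches to the first had been seen. Each sequence is the gene's own strand, 5′ to 3′, lower case, with matches in capitals, and ends at the base before the start.
Osgin1, chr8:119436897-119437146, plus strand: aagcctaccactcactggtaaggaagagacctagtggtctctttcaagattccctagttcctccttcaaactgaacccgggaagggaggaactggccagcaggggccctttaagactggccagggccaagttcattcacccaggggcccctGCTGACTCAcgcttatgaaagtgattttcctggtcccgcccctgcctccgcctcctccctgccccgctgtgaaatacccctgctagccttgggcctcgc
Srxn1, chr2:152105274-152105523, plus strand: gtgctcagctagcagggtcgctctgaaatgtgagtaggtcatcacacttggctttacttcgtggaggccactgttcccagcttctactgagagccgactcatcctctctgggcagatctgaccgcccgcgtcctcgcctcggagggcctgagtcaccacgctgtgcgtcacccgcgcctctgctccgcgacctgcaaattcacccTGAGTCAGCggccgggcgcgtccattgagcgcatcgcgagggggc
Gclm, chr3:122245307-122245556, plus strand: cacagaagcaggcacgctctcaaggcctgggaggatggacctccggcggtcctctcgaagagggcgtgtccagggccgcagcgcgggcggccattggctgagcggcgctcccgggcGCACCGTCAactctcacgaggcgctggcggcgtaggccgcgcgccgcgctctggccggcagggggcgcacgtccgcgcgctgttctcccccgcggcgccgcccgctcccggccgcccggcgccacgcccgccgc
Nqo1, chr8:107403206-107403455, minus strand: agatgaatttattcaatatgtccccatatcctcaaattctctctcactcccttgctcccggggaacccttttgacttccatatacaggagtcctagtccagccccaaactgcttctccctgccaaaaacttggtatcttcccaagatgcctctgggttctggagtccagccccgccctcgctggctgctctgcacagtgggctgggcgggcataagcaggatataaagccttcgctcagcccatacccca

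Osgin1 held TGAGTCAGC on the opposite strand, beginning 99 bases before the start, and Srxn1 held it on its own strand 45 bases before the start. That form occurred in 2 of the 10 windows of these genes and in 0.823% of 32817 annotated windows. The core spelling, TGACNNNGC, occurred in 4 of the 10 windows and in 12.4% of all windows. Gclm held the core as TGACGGTGC on the opposite strand, 134 bases before its start. Srxn1 held a further core match, TGACCTAGC, 29 bases after its start. The stretch before the Nqo1 start holds neither spelling, which says only that these letters are not in this window. In Txnrd1 the core lay in 1 of 3 annotated windows, and in Nfe2l2 it lay 240 bases before the start. These last matches are shown with 10 bases on each side.
Txnrd1, chr10:82859104-82859132, plus strand: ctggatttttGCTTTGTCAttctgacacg
Nfe2l2, chr2:75704885-75704913, minus strand: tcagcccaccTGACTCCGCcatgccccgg

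Glutathione is made from glutamate, cysteine and glycine by glutamate-cysteine ligase, whose catalytic subunit is encoded by Gclc and whose modifier subunit is encoded by Gclm, and then by glutathione synthetase, encoded by Gss. The genes of the first enzyme passed as lower, and Gss was lower without passing. No test compared Gss with Gclm. Gclc (ENSMUSG00000032350, chromosome 9, 77661817 to 77701767, plus strand) was at 263 and 274 CPM in baicalein livers, against 702 and 691 CPM in saline livers. The mean was 269 ± 7.40 CPM with baicalein and 696 ± 7.70 CPM with saline (SD, n = 2 each), so the gap was many times the spread within either group. The log2 fold change was -1.37 (SE 0.10, adjusted p = 5.32e-05), and by p-value Gclc was number 90 of the 12657 genes.

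Gclm (ENSMUSG00000028124, chromosome 3, 122039206 to 122064381, plus strand) was at 203 and 190 CPM with baicalein and at 263 and 288 CPM with saline. Its groups did not overlap, but the fall was smaller than that of Gclc: log2 levels differed by -0.49 (SE 0.10, adjusted p = 0.0136). The call was lost without saline 1 (adjusted p = 0.0626), saline 2 (0.197) or baicalein 2 (0.0512). Of the exonic bases of Gclm, 244 overlap a processed pseudogene, Gm6061, and 296 lie opposite Gm17494, so its counts carry that uncertainty.

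Gss (ENSMUSG00000027610, chromosome 2, 155405101 to 155434730, minus strand) was at 53.8 and 47.6 CPM with baicalein and at 63.1 and 62.4 CPM with saline. Both baicalein livers were lower, yet the log2 fold change of -0.31 (SE 0.10, adjusted p = 0.0662) did not pass, with a 95% interval of -0.53 to -0.09. Gss overlaps Acss2 on the other strand by 395 exonic bases. Acss2, an acetyl-CoA synthetase gene, was at 284 and 199 CPM with baicalein and 187 and 184 CPM with saline.

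**Figure D2:**
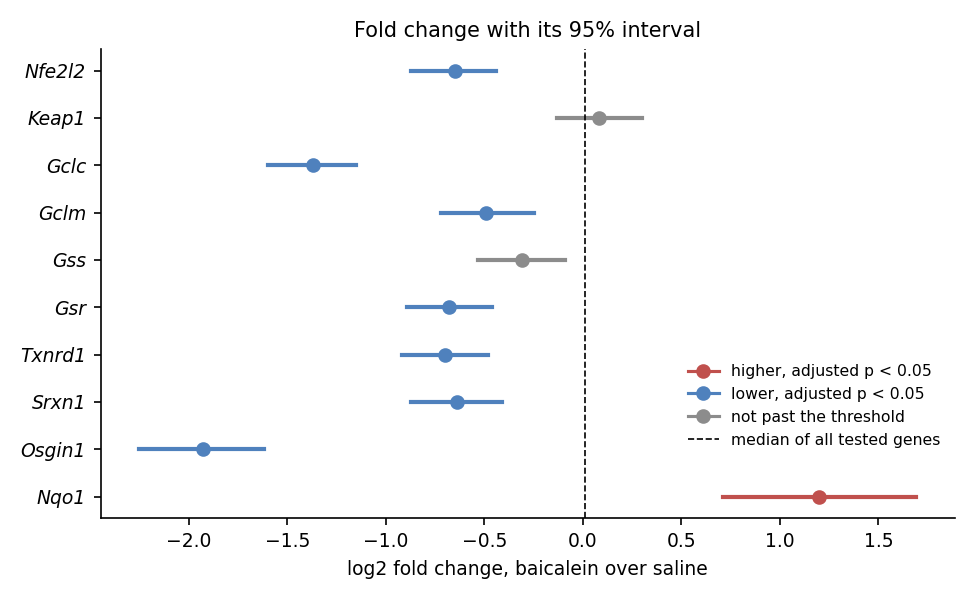
Log2 fold change of each gene, baicalein over saline (horizontal axis), with points for estimates and bars for 95% intervals; colour gives the call and the dashed line is the median of all tested genes (0.01). Of the genes that fell, Osgin1 (-1.93) and Gclc (-1.37) lie farthest to the left, and Nqo1 (1.20) lies alone on the right.

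The subunit genes of glutamate-cysteine ligase changed unequally. Within a liver, the ratio of Gclc to Gclm FPKM was 2.17 and 2.40 with baicalein, against 4.46 and 4.01 with saline. The mean was 2.29 ± 0.164 with baicalein and 4.23 ± 0.318 with saline (SD, n = 2 each), a ratio 0.541 times that of saline livers. Gclc to Gss stood at 7.68 and 9.03 with baicalein and at 17.5 and 17.4 with saline. These ratios are descriptions, since an exact permutation test of 2 against 2 livers cannot go below p = 0.333.

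**Figure D3:**
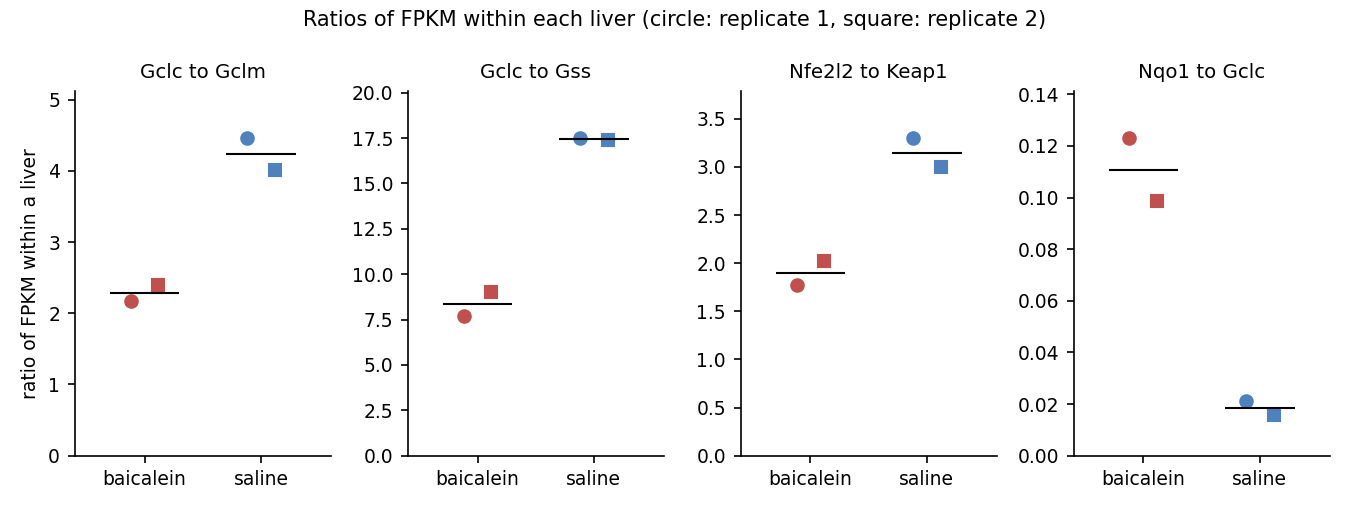
Ratios of deposited FPKM within each liver for 4 gene pairs (vertical axes, from 0, a separate scale per pair) in baicalein and saline livers; circles are replicate 1, squares replicate 2 and lines means. Gclc to Gclm, Gclc to Gss and Nfe2l2 to Keap1 are lower in both baicalein livers than in both saline livers, and Nqo1 to Gclc is higher (0.123 and 0.0985 with baicalein against 0.0213 and 0.0156 with saline).

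Gsr and Txnrd1, which encode reductases that use NADPH to restore thiols, fell by like amounts, while 2 other thioredoxin reductase genes did not pass. Those were Txnrd2, of the mitochondrial enzyme (log2 fold change 0.05, SE 0.12, adjusted p = 0.846), and Txnrd3 (-0.04, SE 0.15, adjusted p = 0.910). Gsr (ENSMUSG00000031584, chromosome 8, 34142551 to 34188191, plus strand), whose enzyme reduces glutathione disulphide, was at 72.2 and 71.2 CPM with baicalein and at 112 and 118 CPM with saline. The baicalein livers had an SD of 0.678 CPM (n = 2) and lay below both saline livers, and the log2 fold change was -0.68 (SE 0.09, adjusted p = 0.00185). Txnrd1 (ENSMUSG00000020250, chromosome 10, 82669785 to 82733546, plus strand) encodes the cytosolic thioredoxin reductase, a selenoprotein. It was at 148 and 140 CPM with baicalein and at 235 and 231 CPM with saline. Neither group overlapped the other, and log2 levels differed by -0.70 (SE 0.10, adjusted p = 0.00192). The interval of Eid3 lies within that of Txnrd1 on the same strand in the table.

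Srxn1 (ENSMUSG00000032802, chromosome 2, 151947436 to 151953296, plus strand) encodes sulfiredoxin, which repairs over-oxidised peroxiredoxins. Its levels were 45.3 and 43.7 CPM in baicalein livers, against 74.3 and 64.6 CPM in saline livers. The groups did not overlap, and the log2 fold change was -0.64 (SE 0.10, adjusted p = 0.00337). This is the gene whose window holds the TGAGTCAGC form nearest to the start among those printed.

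Osgin1 (ENSMUSG00000074063, chromosome 8, 120160863 to 120172995, plus strand) encodes an oxidative stress induced growth inhibitor. It was at 137 and 110 CPM in the baicalein livers, against 438 and 505 CPM in the saline livers. Every saline liver was above 3 times either baicalein liver, although the livers of each group differed by more than those of Gclc did. The log2 fold change of -1.93 (SE 0.14, adjusted p = 5.77e-05) was the most negative of the 10.

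Nqo1 (ENSMUSG00000003849, chromosome 8, 108114857 to 108129838, minus strand) encodes a quinone reductase that takes its electrons from NADH or NADPH. It had 195 and 223 counts in baicalein livers and 105 and 61 counts in saline livers, or 13.4 and 11.1 CPM with baicalein against 6.17 and 4.45 CPM with saline. Both baicalein livers were above both saline livers. The log2 fold change was 1.20 (SE 0.21, adjusted p = 0.00629), with a 95% interval of 0.71 to 1.69. The call was lost without baicalein 1 (log2 fold change 1.05, adjusted p = 0.0832).

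Nqo1 is also a target of the aryl hydrocarbon receptor, whose part here was not tested. Markers of other liver cells are given here beside these values. Of 5 bile duct markers tested, Sox9 and Spp1 fell, Sox9 losing its call without saline 1 or without baicalein 1. The other 3 did not pass, had log2 fold changes from 1.68 to 4.37 and were each highest in baicalein 2. Bile duct markers summed to 29.4 and 129 CPM with baicalein, against 70.7 and 64.5 CPM with saline. Sox9 was at 4.40 and 6.24 CPM with baicalein and 13.2 and 10.6 CPM with saline, and Spp1 at 20.4 and 24.1 CPM with baicalein and 50.3 and 49.7 CPM with saline. Krt19 did not pass and was at 1.58 and 72.2 CPM with baicalein, against 2.29 and 1.24 CPM with saline. Nqo1 was at 13.4 and 11.1 CPM in the same baicalein livers. Of 7 Kupffer cell markers 7 rose, as did 6 of 6 sinusoidal endothelial and 6 of 7 stellate cell markers. Removal of at least 1 liver lost the calls of Clec4f, Adgre1, Csf1r, Clec4g, Lyve1, Oit3, Kdr, Colec11 and Pdgfrb. Kupffer cell markers summed to 834 and 714 CPM in baicalein livers and to 477 and 406 CPM in saline livers. Endothelial markers summed to 449 and 458 CPM with baicalein and to 303 and 268 CPM with saline, and stellate cell markers to 576 and 590 CPM with baicalein and to 373 and 211 CPM with saline. Des, a stellate cell marker that muscle also expresses, was at 6.26 and 101 CPM with baicalein and 151 and 2.63 CPM with saline, and without it the stellate sum was 569 and 489 CPM with baicalein and 223 and 208 CPM with saline. Red cell markers went the other way: 4 of 5 fell, and the 5 summed to 137 and 153 CPM with baicalein, against 918 and 658 CPM with saline. Without baicalein 2, Hba-a1, Hbb-bs and Hbb-bt lost their calls. Neutrophil markers summed to 7.77 and 3.54 CPM with baicalein and to 2.53 and 3.50 CPM with saline. Lymphocyte markers summed to 14.8 and 13.3 CPM with baicalein and to 9.17 and 8.53 CPM with saline. The part of these cell types in the values of Nqo1 or of the other 9 genes was not tested.

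Per kilobase, the order of the 10 genes was nearly the same in all livers. In baicalein livers Gclc led with 73.4 ± 6.32 FPKM, followed by Osgin1 at 47.2 ± 4.57, Gclm at 32.1 ± 0.457, Gsr at 26.8 ± 1.32 and Txnrd1 at 20.8 ± 0.409 FPKM (SD, n = 2). Nfe2l2, Srxn1, Keap1 and Gss followed, and Nqo1 came last at 8.09 ± 0.593 FPKM. In saline livers Gclc averaged 180 ± 0.434 FPKM and Osgin1 171 ± 19.5 FPKM (SD, n = 2), and their order differed between saline 1 and saline 2. The ranges of Gclm (42.6 ± 3.31 FPKM) and Gsr (40.5 ± 2.16 FPKM) overlapped there, though Gclm was above Gsr in each liver. Nqo1 was again last, at 3.32 ± 0.718 FPKM. Keap1 lay above Gss in both baicalein livers and below it in both saline livers.

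Pairs of livers alike in muscle RNA, chosen after the muscle counts were seen, gave the same sign for all 10 genes. For the 9 genes whose groups do not overlap, any pair must share its sign, so the sign is no test of muscle RNA. Between the livers nearly free of it, baicalein 1 and saline 2, the log2 ratio of CPM was -1.39 for Gclc, -1.88 for Osgin1, -0.65 for Txnrd1 and 1.59 for Nqo1. Between the livers that carried it, baicalein 2 and saline 1, the ratios were -1.36 for Gclc, -2.0 for Osgin1, -0.75 for Txnrd1 and 0.85 for Nqo1. Nqo1 thus differed most between these pairs. Each ratio compares 1 liver with 1 liver and has no test.

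**Figure D4:**
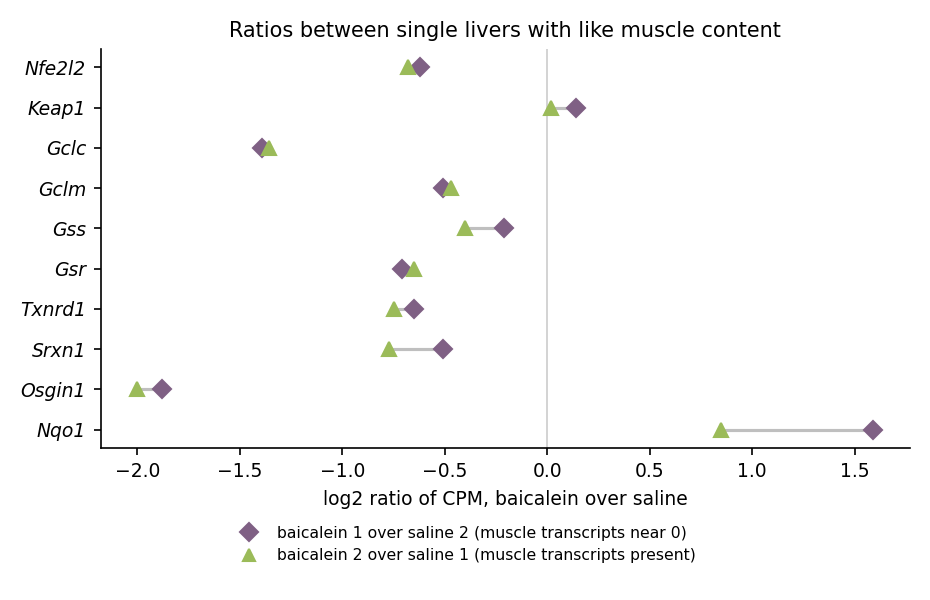
Log2 ratio of CPM between single livers for each gene (horizontal axis): diamonds are baicalein 1 over saline 2, with muscle transcripts near 0, and triangles are baicalein 2 over saline 1, which carried them. The markers nearly coincide for Gclc (-1.39 and -1.36) and lie apart for Nqo1 (1.59 and 0.85).

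Wider lists of 91 genes around this pathway held 87 that could be tested, of which 21 fell and 6 rose. That is 24.1% lower and 6.90% higher, where all tested genes had 7.90% and 7.65%. Their median log2 fold change was -0.14. Leaving out each liver in turn, 7 of these 27 calls held every time (Ephx1, Aox1, Ugdh, Gsta2, Mat1a, Bhmt and Txnip). Exons of Sqstm1, Mafg, Ugdh, Ephx1, Me1, Bhmt, Csad, Mat2a, Glo1, Oplah, Txnip and Prdx5 overlap those of another annotated gene, so their counts may include its reads.

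Of 13 regulators and partners of NRF2, Sqstm1 fell and the other 12 did not pass, with a median log2 fold change of -0.19 over the list. Sqstm1 encodes p62, an autophagy receptor that binds KEAP1, and was at 453 and 413 CPM with baicalein and 627 and 572 CPM with saline (log2 fold change -0.47, SE 0.11, adjusted p = 0.0190). Without either saline liver its call was lost, with adjusted p reaching 0.232. Mafg, a small MAF partner, was at 94.1 and 82.1 CPM with baicalein and at 67.8 and 70.3 CPM with saline and did not pass (adjusted p = 0.0517).

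Of 24 tested genes among 26 other NRF2 targets, 9 fell and 1 rose, and the list's median was -0.22. Ephx1, the microsomal epoxide hydrolase gene, was at 270 and 259 CPM with baicalein and 732 and 652 CPM with saline (log2 fold change -1.39, SE 0.11). Aox1, encoding aldehyde oxidase, was at 55.8 and 54.8 CPM with baicalein and 149 and 134 CPM with saline (-1.36, SE 0.10). Both fell by about as much as Gclc. Ugdh, which supplies UDP-glucuronate (-1.20, SE 0.10), and Me1, the cytosolic malic enzyme that yields NADPH (-0.56, SE 0.10), also fell.

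The glutathione transferase genes Gsta2 (log2 fold change -0.77, SE 0.12), Gstm3 (-0.97, SE 0.15) and Gstm1 (-0.61, SE 0.13) fell too. Their families hold near-identical copies whose reads the authors' counting may have split, so these values are uncertain. Cbr1, a carbonyl reductase gene, rose to 80.9 and 80.0 CPM with baicalein, against 60.6 and 62.4 CPM with saline (0.39, SE 0.09, adjusted p = 0.0203), a call lost on removal of any of the 4 livers. Calls were also lost for Gstm1 without any of the 4, for Gstm3 without either baicalein liver and for Me1 without either saline liver (adjusted p up to 0.257, 0.101 and 0.0794). Hmox1, the heme oxygenase gene, was at 41.7 and 36.6 CPM with baicalein and 51.8 and 32.7 CPM with saline and did not pass (adjusted p = 0.848).

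**Figure D5:**
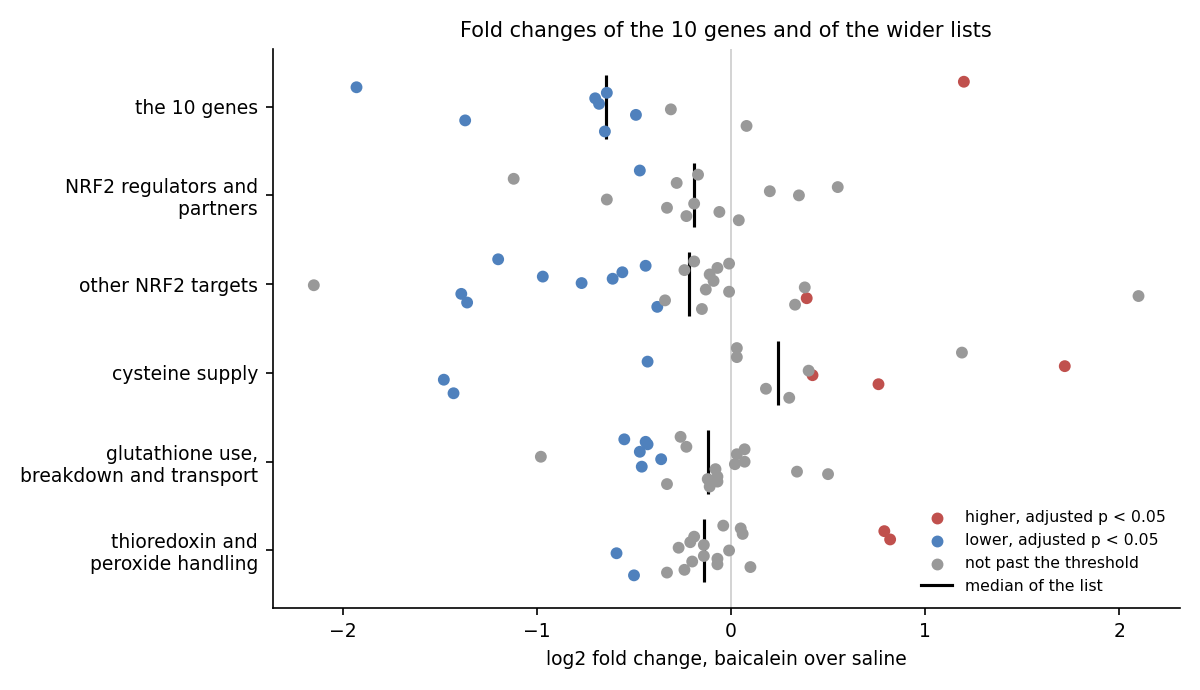
Log2 fold change, baicalein over saline (horizontal axis), of the 10 genes and of each tested gene in 5 wider lists; each point is a gene, colour gives the call and black bars are list medians. The median of the 10 genes (-0.64) lies to the left of those of the wider lists (-0.22 to 0.24).

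The cysteine supply list also holds genes that use cysteine or recycle its precursors. Of its 12 tested genes 3 rose and 3 fell, with a list median of 0.24. Mat1a, encoding the liver form of methionine adenosyltransferase, rose to 5750 and 4770 CPM with baicalein, against 1530 and 1660 CPM with saline (log2 fold change 1.72, SE 0.13, adjusted p = 6.39e-05). Cdo1, whose enzyme oxidises cysteine (0.76, SE 0.12), and Cth, whose enzyme releases cysteine from cystathionine (0.42, SE 0.11), rose. Bhmt, which returns homocysteine to methionine, fell to 917 and 789 CPM with baicalein, against 2400 and 2210 CPM with saline (-1.43, SE 0.12, adjusted p = 1.20e-04).

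Csad, for taurine synthesis (-1.48, SE 0.20), and Mat2a, the form of methionine adenosyltransferase outside hepatocytes (-0.43, SE 0.09), fell. Without either saline liver Cth, Cdo1 and Mat2a lost their calls, as did Cth without baicalein 1 and Mat2a without baicalein 2. Csad lost its call without saline 1. Adjusted p over these removals reached 0.329 for Cth, 0.129 for Cdo1, 0.0893 for Mat2a and 0.0541 for Csad. Csad and Zfp740 overlap on opposite strands by 278 exonic bases. The cystine transporter gene Slc7a11 had 0 and 3 counts in baicalein livers and 1 and 0 in saline livers, too few to be tested.

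Of 21 tested genes of glutathione use, breakdown and transport, 6 fell and the list's median was -0.12. They were Slc25a39, a mitochondrial glutathione transporter gene (log2 fold change -0.55, SE 0.11), Gpx4, the lipid peroxide reductase gene (-0.47, SE 0.12), Glo1 (-0.46, SE 0.11), Oplah (-0.44, SE 0.10), Lap3 (-0.43, SE 0.10) and Glrx5 (-0.36, SE 0.10). Glo1 encodes glyoxalase, Oplah the oxoprolinase, Lap3 a leucine aminopeptidase and Glrx5 a mitochondrial glutaredoxin. All 6 calls were lost without either saline liver, those of Gpx4, Glo1 and Glrx5 also without either baicalein liver and those of Oplah and Lap3 also without baicalein 2. The adjusted p reached 0.335, for Glo1.

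Of 19 genes of thioredoxin and peroxide handling, 2 rose and 2 fell, and the list's median was -0.14. Txnip, whose protein binds thioredoxin, rose to 173 and 191 CPM with baicalein, against 109 and 102 CPM with saline (log2 fold change 0.79, SE 0.10, adjusted p = 0.00129). Sod3, the extracellular superoxide dismutase gene, rose (0.82, SE 0.14), a call lost without saline 2 (adjusted p = 0.0676). Prdx5, a peroxiredoxin gene (-0.59, SE 0.11), and Cat, the catalase gene (-0.50, SE 0.11), fell. Prdx5 lost its call without saline 1 (adjusted p = 0.0762) and Cat without either saline liver (up to 0.295).

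Gclc had the smallest p-value of the 10, and genes with a like profile over the 4 livers were sought by the distance between log2 CPM profiles centred on each gene's mean. Of 9231 genes compared, Jun (distance 0.0709), Clpx (0.0711), Chka (0.109), Enpp3 (0.110) and Aox1 (0.112) were nearest, and 34 lay within 0.25. Jun encodes an AP-1 transcription factor, Clpx a mitochondrial protease subunit and Chka choline kinase. Their log2 fold changes ran from -1.41 to -1.36. This follows largely from the search itself, since the livers of a group lay close together for Gclc.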

How the data were processed

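RNA of 4 livers was sequenced after SMARTer mRNA library preparation, per the labels' protocols. The authors deposited 1 table with whole-number read counts and FPKM (counts scaled by gene length and library total) per gene and liver. Columns were matched to livers by title. Per the submitters' processing notes the build was mm10. Aligner and counter: not given in the sources used here. Among 21851 IDs shared with GENCODE M21 (mm10), 514 had the table's start and end, so table positions are of a build not given here. Counts and FPKM parted by more than 1% for 3 gene IDs, not among the 10 genes.

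Deposited counts of 12657 genes kept by filterByExpr were TMM-scaled and fitted by robust quasi-likelihood (edgeR 4.0.16 under R 4.3.3, no covariate, two-sided, Benjamini-Hochberg over all genes, threshold 0.05). In data simulated from these livers, the fit recovered the direction of the changes it called and their sizes. However, unchanged genes made up 24.1% of its calls, a larger share than the threshold allows. It called 41.7% of genes changed by a log2 of 1 and 70.5% of those changed by 2. These were 103 and 95 genes, fewer than the genes called in the real livers. With 2 livers a group, precision rests on spread shared between genes. Whether count totals limited the calls was not tested. Nqo1 had the fewest counts of the 10 genes (61 to 223 in a liver) and the largest SE (0.21). Alternatives used DESeq2 1.42.0, limma 3.58.1 (voom, and log2 of FPKM plus 0.1 or 1), other scaling and filters, blocks and each liver left out. The 10 genes and the lists were chosen with earlier results of these data known. All 10 are named, and from each list the genes past the threshold, at most the 8 of smallest p. Mafg, Hmox1, Slc7a11, Gpx1, Cbr3, Acss2 and single markers were added after their values were seen. One bile duct marker is not reported here. Likeness used genes with a mean of at least 5 CPM. Replicate pairs differed by more than sampling noise (chi-square per degree of freedom 16.4 for baicalein and 20.1 for saline).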

Additional observations from a re-analysis of the deposited data

How the results depend on the processing

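Nfe2l2, Gclc, Gsr, Txnrd1, Srxn1 and Osgin1 stayed past the threshold in the same direction under all 13 alternatives in which they were fitted. With 1 liver left out the count of the 10 genes called lower was 6 to 7 and called higher 0 to 1, Nqo1 being lost without baicalein 1 (edgeR, unadjusted p = 0.0117; 1 gene higher at an unadjusted p below 0.05). Such fits have fewer samples, and the lone liver of a group is assumed to vary like the others. Over them log2 fold changes ran from -0.56 to -0.43 for Gclm, from 0.98 to 1.45 for Nqo1 and from -0.01 to 0.16 for Keap1, whose sign turned without baicalein 1, and the Gclc to Gclm ratio of baicalein over saline from 0.512 to 0.570. Genes called over the whole table fell to between 521 and 665 higher and between 535 and 663 lower, and those of the wider lists were 2 to 7 higher and 6 to 17 lower. With limma-voom 632 of all genes were higher and 705 lower; the cause was not tested. Deviations of same-numbered livers from their group means correlated at -0.771. With 2 livers a group each deviates as the mirror image of the other, so this cannot settle whether the replicate numbers pair the livers. With the replicate number as a block 531 genes were higher and 601 lower, 11 wider-list genes were lower, and Gclm (-0.49, adjusted p = 0.0605) did not pass; no other of the 10 calls changed. With crosswise pairs as a block, chosen after seeing the data, 1809 genes were higher and 1689 lower, 10 wider-list genes were higher, and 8 of the 10 genes were lower, Gss (-0.31) among them. Between single livers alike in muscle transcripts, log2 ratios were -0.51 (without them) and -0.77 (with them) for Srxn1 and 1.59 and 0.85 for Nqo1. Genes near 1 CPM are limited by their counts.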

Other observations

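Gpx1, the gene of the main cytosolic glutathione peroxidase, had 18 and 12 counts in baicalein livers and 24 and 30 counts in saline livers, or 1.24 and 0.599 CPM with baicalein against 1.41 and 2.19 CPM with saline. In the same livers Gpx4 was at 158 and 139 CPM with baicalein and 224 and 186 CPM with saline. The treatment of reads shared between gene copies is unknown here, which leaves the Gpx1 values uncertain, and no change is read from them.

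Cbr3, a carbonyl reductase gene that is also an NRF2 target, averaged 3.14 ± 2.89 CPM with baicalein and 0.739 ± 0.296 CPM with saline (SD, n = 2 each). Its log2 difference of 2.10 (SE 0.85) did not pass (edgeR, adjusted p = 0.187). The spread between the baicalein livers was nearly as large as their mean. Both genes were chosen after their values were seen.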
